A study of Drosophila melanogaster with 6 samples.

Results

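The CCT chaperonin (also called TRiC) is a folding machine of the cytosol. It is built of a pair of stacked rings, and each ring holds 1 copy of each of 8 related subunits, which in Drosophila are encoded by CCT1 to CCT8 (alpha, beta, gamma, delta, epsilon, zeta, eta and theta). New polypeptides enter the cavity, a lid closes as ATP is hydrolysed, and the protein folds inside. Actin and tubulin depend on it, as do a number of proteins with WD repeats. The genes were taken by name from the annotation of the array: a probe set was used when it was annotated to exactly 1 gene whose current symbol is CCT1 to CCT8. All 8 genes were found, each with 1 probe set, out of 11982 genes with such a probe set. Pcyt1 and Pcyt2, enzymes of phosphatidylcholine synthesis, carry CCT1 and CCT2 as older synonyms and were left out.

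The measurements come from S2 cells, an established Drosophila line of embryonic origin with features of hemocytes, the blood cells of the fly. The cells were cultured with insulin and serum in six-well plates and were given protocatechuic aldehyde (PA, 0.1 mM) or vehicle for 2 h. RNA of 3 samples from each group was hybridized to 1 Affymetrix GeneChip Drosophila genome 2.0 array per sample, 6 arrays in all. The data thus describe 1 cell line at 1 dose and 1 time, and whether the samples of a group were separate cultures is not stated, so that the p-values refer to the spread between these arrays alone, and this spread may be technical. Of 10 hemocyte markers with a probe set, 9 lay in the upper 50% of mean signal, among them Hml, srp and NimC1, while lz did not. Of 12 markers of neurons and glia, muscle, fat body and germline, 5 did so. Summed over these 12, the signal lay between 457 and 536 for vehicle and between 434 and 515 for PA, so the groups overlapped. Summed over the 10 hemocyte markers, it lay between 30433 and 31306 for vehicle and between 30537 and 32239 for PA, and the groups overlapped here too. The sums of the separate lists are of different probe sets and are not set against each other. Each sum depends most on its brightest member, elav for the other cell types and Hml for the hemocyte markers. Overlap of the sums therefore says little about the dimmer markers.

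Transcripts of all 8 CCT subunits were measured brightly and closely, and none was called different between PA-treated and vehicle-treated cells by limma. The mean signals of the probe sets lay at percentiles 96.8 to 99.0 of the 18769 probe sets tested. The estimated changes ran from 0.00079 for CCT4 to 0.062 for CCT5 on the log2 scale, that is from 0.055% to 4.4%. The signal is the linear MAS5 intensity of a probe set, which depends on its probes as well as on the RNA, so that the signals of different subunits give no order of abundance. Each array had been scaled by the authors to a common trimmed mean of 500.0.

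CCT1, CCT2 and CCT3 differ most in how widely their signal spread. For CCT1 (probe set 1627638_s_at) the signal was 7376, 7229 and 7410.2 on the vehicle arrays 1 to 3 and 7516, 8025 and 7216 on the PA arrays 1 to 3. PA replicate 2 was the highest and PA replicate 3 the lowest of the 6, so the groups overlapped. The vehicle mean was 7338 ± 96.0 and the PA mean 7586 ± 409 (SD, n = 3 each). CCT1 had the widest range of the subunits, with a highest signal 1.11 times the lowest. For CCT2 (1630408_s_at) the signal was 11064, 11102 and 11354 with vehicle and 11124, 11260.2 and 11321 with PA. Its highest and lowest values were both on vehicle arrays and differed by a factor of only 1.03, the narrowest range of the 8. For CCT3 (1634782_s_at) the signal was 5079, 5029.8 and 5373 with vehicle and 5568, 5215 and 5324 with PA. Vehicle replicate 3 lay above PA replicates 2 and 3, and the groups overlapped. RefSeq (release 6 of the genome) lists 4 transcripts for CCT3, 2 each for CCT1 and CCT5 and 1 for each other subunit, and the array values do not separate them.

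CCT4, CCT5 and CCT6 had similar signals and different estimates of the change. For CCT4 (1629752_at) the signal was 5723, 5713 and 5587 on the vehicle arrays and 5764, 5684 and 5584 on the PA arrays. The means were 5674 ± 75.5 and 5678 ± 90.0 (SD, n = 3 each), the smallest difference among the subunits. For CCT5 (1624419_a_at) the signal was 5440.1, 5399.5 and 5646 with vehicle and 5588, 5845 and 5780.2 with PA. Only vehicle replicate 3 lay above a PA array, replicate 1. The means of CCT5 were 5495 ± 132 and 5738 ± 133 (SD, n = 3 each), the largest relative difference of the 8. For CCT6 (1630132_at) the signal was 5199, 5248 and 5124 with vehicle and 5339, 5459.97 and 5232 with PA. Here vehicle replicate 2 lay just above PA replicate 3.

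CCT7 alone had groups that did not overlap, and CCT8 varied as much within a group as between them. For CCT7 (1626845_at) the signal was 7778, 7847 and 7740.0 with vehicle and 7911, 8080.04 and 8009.95 with PA. Every PA array was above every vehicle array, by a small margin: the means were 7788 ± 54.5 and 8000.4 ± 84.8 (SD, n = 3 each). Such a separation was found for 9.61% of all probe sets tested. Among the 304 other genes with a mean signal between those of the dimmest and the brightest subunit it was found for 57.9%. The separation in 1 of 8 subunits was thus no more frequent than in equally bright genes. For CCT8 (1634700_at) the signal was 7414, 7574 and 7969 with vehicle and 7644, 8052 and 7958 with PA. Vehicle replicate 3 lay above PA replicates 1 and 3. Over the 8 subunits, the highest of the 6 signals was on PA replicate 2 for 5, on PA replicate 1 for 2 and on vehicle replicate 3 for 1.

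**Figure D1:**
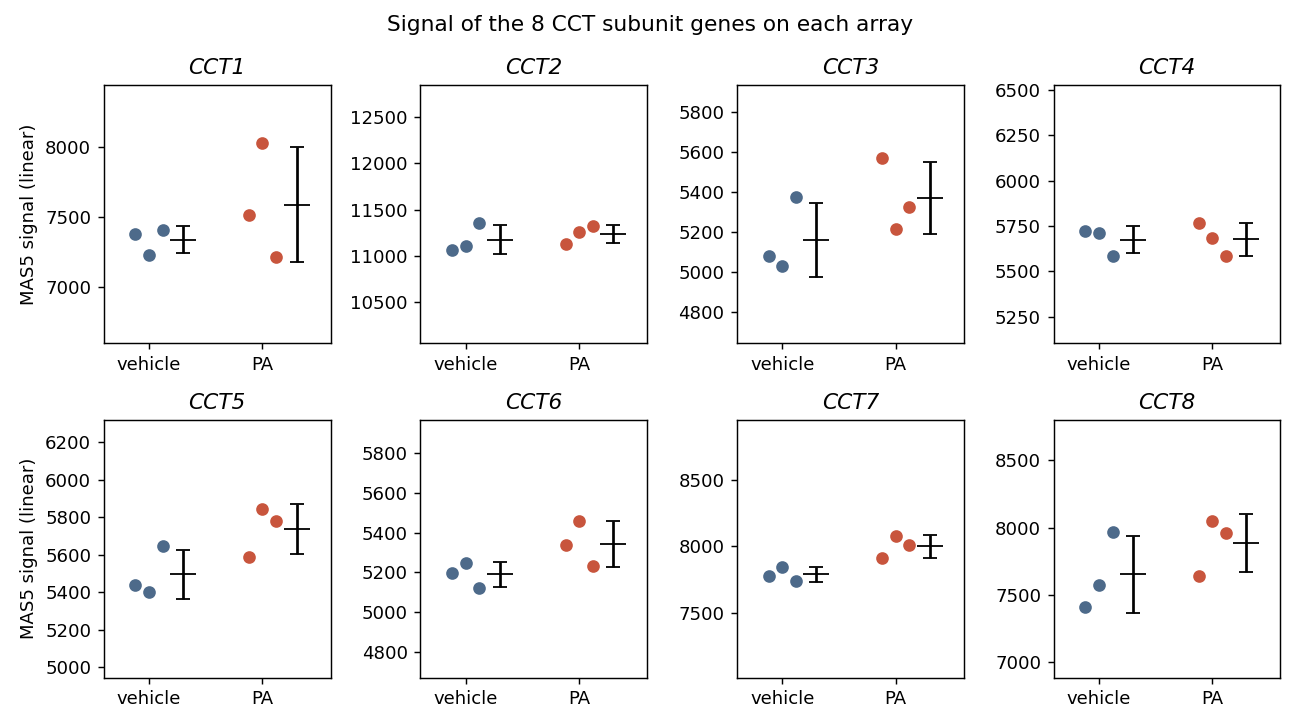
MAS5 signal (linear scale, y axis not from 0 and spanning the same relative range in every panel) of CCT1 to CCT8 on the 3 vehicle arrays (blue) and the 3 PA arrays (red), points from left to right being replicates 1 to 3, with the mean and SD of each group in black. Only for CCT7 does every PA array lie above every vehicle array, and the widest spread is that of CCT1 on the PA arrays, from 7216 to 8025.

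The comparison asks whether 2 h of PA changed the amount of each subunit transcript. It was made with limma, in which the variance follows a trend on the mean signal, on log2 signals of all probe sets, with calls made below an adjusted p of 0.05 (Benjamini-Hochberg). Over all probe sets 5.10% were called, 2.29% higher and 2.82% lower with PA. Of the CCT subunits 0 of 8 were called by limma, and 0 of 8 had an unadjusted p under 0.05, where 17.0% of all probe sets did. By the methods' t-test 1 of the subunits, CCT7, passed the unadjusted threshold, where 14.4% of all probe sets did so, and it did not pass after Benjamini-Hochberg adjustment. The smallest adjusted p from limma was that of CCT5, at 0.423, with a log2 change of 0.062 (standard error 0.035). Those of CCT3 and CCT6 were 0.538 and 0.629, with log2 changes of 0.057 and 0.042. For CCT7, CCT1 and CCT8 the log2 changes were 0.039, 0.047 and 0.043, with adjusted p from 0.630 to 0.651. CCT2 and CCT4, at 0.0080 and 0.00079, had adjusted p of 0.946 and 0.996. A 2-sided exact permutation test of the 3 PA against the 3 vehicle arrays gave p = 0.1 for CCT7, the smallest that 3 against 3 allow, and 0.2 to 1 for the other subunits.

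The intervals of the changes were narrow. The 95% intervals from limma ran from a fold of 0.952, the lower bound of CCT4, to a fold of 1.10, the upper bound of CCT3. For CCT2 the interval was 0.960 to 1.05, for CCT5 0.991 to 1.10 and for CCT7 0.980 to 1.08. Each interval included no change. They cover the spread between arrays and not the scaling of the arrays, which is given separately. Since whole cultures were measured, fewer cells of a type and less RNA per cell cannot be told apart, and the amounts of CCT protein were not measured.

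**Figure D2:**
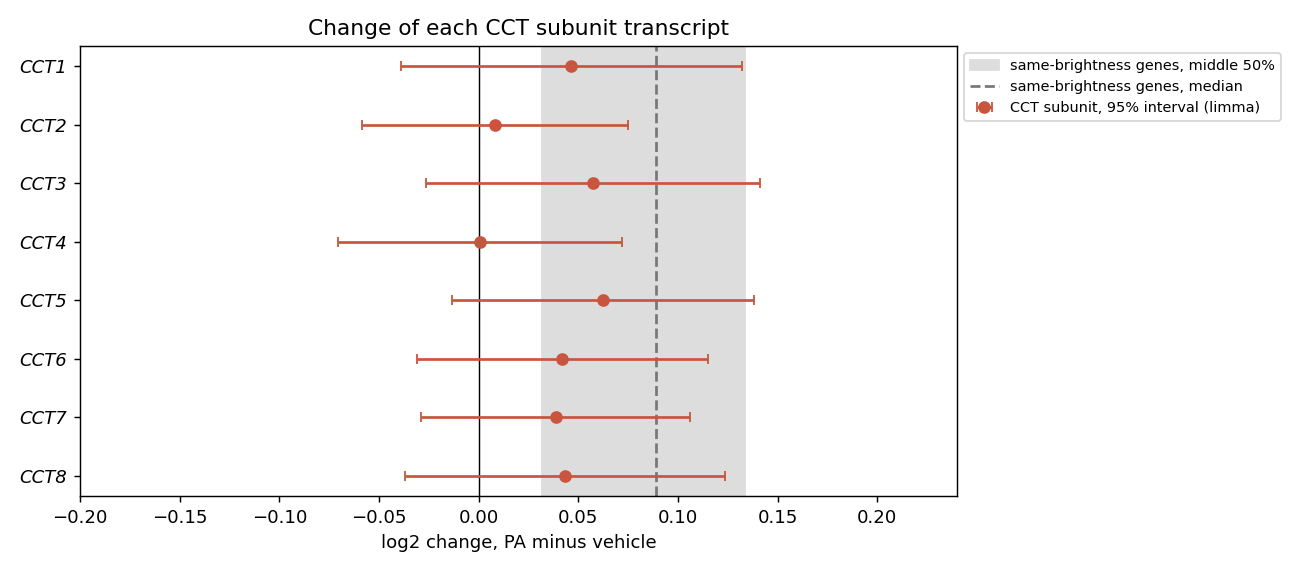
Log2 change (PA minus vehicle, x axis) of each CCT subunit with its 95% interval from limma, beside the median (dashed line) and the middle 50% (grey band) of 304 other genes of the same brightness. All 8 intervals include 0 under the deposited scaling, and all 8 estimates are below the median of the other genes, 0.089, while centring on the 75th percentile raises all 8 estimates and 4 other scalings of the arrays bring 5 to 8 of them below 0.

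Genes of the same brightness give a reference for these values, since bright probe sets shifted together on these arrays. Between the dimmest subunit, CCT3 (mean log2 signal 12.4), and the brightest, CCT2 (13.5), lay 304 other genes. Their median log2 change was 0.089 with quartiles of 0.032 and 0.13, while the median over all probe sets was -0.013. The median of the 8 CCT subunits was 0.043. The change of 186 of the 304 genes (61.2%) was above that of CCT5, the highest of the subunits, 48 were below CCT4, the lowest, and 70 lay between. Of the 304 genes, 26.3% were called, 25.0% higher and 1.32% lower, against 0 of 8 subunits. An unadjusted p under 0.05 was reached by 58.6% of them with limma and by 53.6% with the methods' t-test, against 0 and 1 of the 8 subunits. Every PA array was above every vehicle array for 57.9% and below for 4.61%, against 1 and 0 of the 8 subunits, and over all probe sets the latter share was 11.9%. The smallest change called among the 304 genes was 0.12 on the log2 scale, which is larger than any estimate for a CCT subunit. Their median standard error was 0.036, and those of the subunits were 0.031 to 0.040, so that the subunits were measured with about the precision of their neighbours. These counts describe the arrays, and the difference between the subunits and the other genes was not tested.

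**Figure D3:**
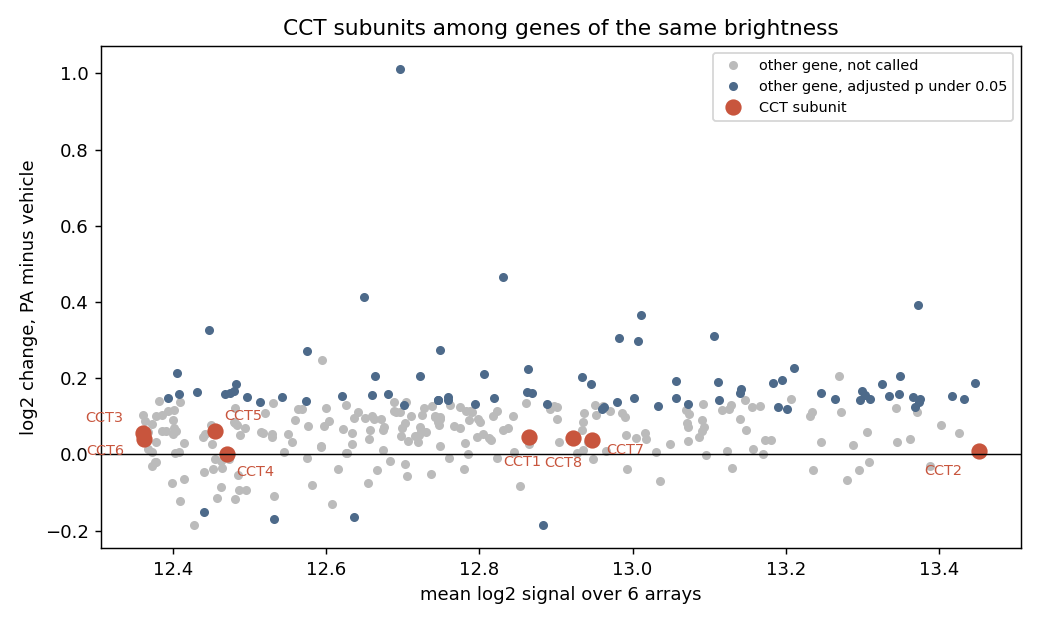
Log2 change (PA minus vehicle, y axis) against mean log2 signal over the 6 arrays (x axis) for the 8 CCT subunits (red) and 304 other genes of the same brightness (blue where the adjusted p from limma is under 0.05, grey where it is not). The subunits lie between 0.00079 and 0.062, lower than each of the 76 genes called higher, under the deposited scaling; all 8 are higher with centring on the 75th percentile, and 5 to 8 lie below 0 under the 4 other scalings.

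The sign of these small changes differed between scalings of the arrays. With the deposited values all 8 estimates were above 0, as they were when each array was centred on its 75th percentile, with a median of 0.12. When each array was centred on its median signal all 8 were below 0, with a median of -0.038, and so they were when each array was centred on the other genes of the same brightness, with a median of -0.046. Quantile normalization gave 6 estimates below 0 and cyclic loess 5, with medians of -0.053 and -0.019. In none of these was a subunit called by limma, and the smallest adjusted p was 0.0679, for CCT5 after centring on the 75th percentile. Over the 6 scalings the 95% intervals of the 8 subunits reached from a fold of 0.823 (centring on the median) to a fold of 1.18 (centring on the 75th percentile). No direction is therefore given for the CCT subunits.

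**Figure D4:**
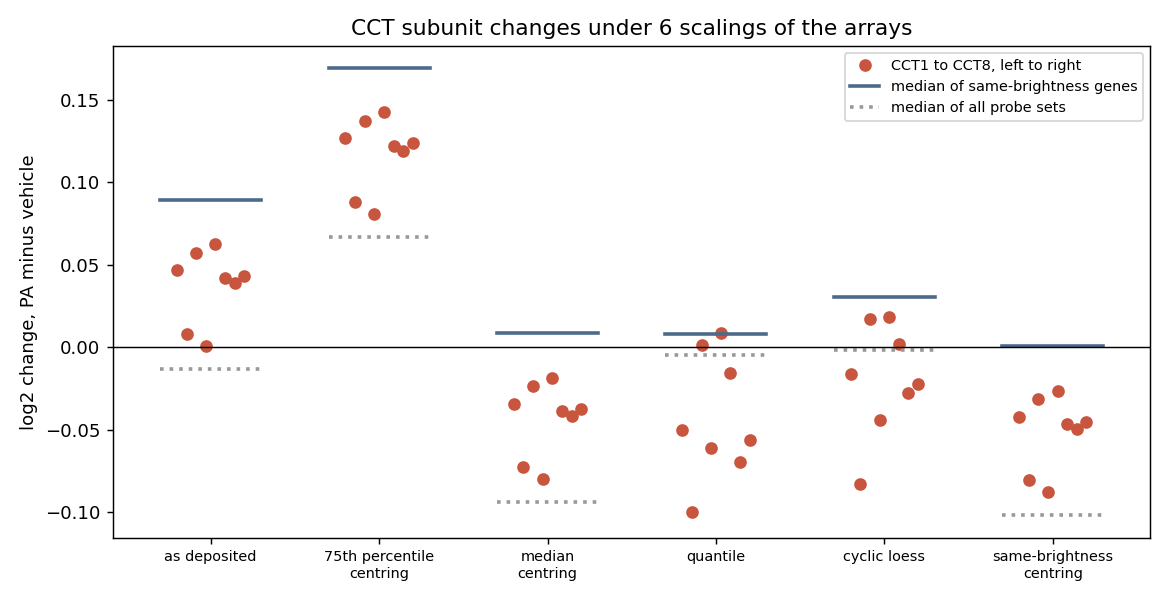
Log2 change (PA minus vehicle, y axis) of CCT1 to CCT8 (red points, left to right) under the deposited scaling and 5 others, with the median of 304 genes of the same brightness (blue line) and of all probe sets (dotted line). The median of the 8 points ranges from 0.12 with centring on the 75th percentile to -0.053 with quantile normalization.

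Ratios between the subunits on the same array do not depend on a factor common to the array. The log2 signal of each subunit was therefore set against the mean of the 8 on that array. On this scale the differences between PA and vehicle ran from -0.037 for CCT4 and -0.029 for CCT2 to 0.020 for CCT3 and 0.025 for CCT5, and those of CCT1, CCT6, CCT7 and CCT8 were 0.0092, 0.0045, 0.0013 and 0.0061. For CCT2, the relative log2 value was 0.732, 0.737 and 0.742 on the vehicle arrays and 0.700, 0.692 and 0.731 on the PA arrays. The groups barely failed to overlap, with 0.7324 as the lowest vehicle value and 0.7311 as the highest PA value. CCT2 was the only subunit for which this held. How often such ratios separate for other genes was not computed, and the scale was chosen after seeing the data, so no shift of CCT2 is read from it. For CCT4 the relative log2 value was -0.22, -0.22 and -0.28 with vehicle and -0.25, -0.29 and -0.29 with PA, and the groups overlapped. The mean log2 signal of the 8 subunits, taken relative to its vehicle mean, was -0.0094, -0.0087 and 0.018 on the vehicle arrays and 0.031, 0.056 and 0.025 on the PA arrays. The median of the genes of the same brightness was at -0.021, 0.0025 and 0.018 with vehicle and at 0.091, 0.096 and 0.079 with PA. With the deposited scaling the subunits thus stood above their vehicle level on each PA array by less than the other bright genes did.

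Across the 6 arrays the subunits did not follow a single pattern. Of the 28 pairs of subunits, 6 had a negative Pearson correlation of log2 signals, and the median was 0.38. The highest were 0.93 for CCT2 with CCT8 and 0.91 for CCT5 with CCT8, and the lowest -0.89 for CCT2 with CCT4. These are descriptions over 6 arrays that share treatment, scaling and very small ranges. The genes whose log2 signal was most like the mean of the 8 subunits, among 7341 other genes in the upper 50% of signal, were colt (a carnitine-acylcarnitine carrier of mitochondria; r = 0.99 over 6 arrays), Shrm (0.99), CG7453 (0.99), Gprk2 (a G protein-coupled receptor kinase; 0.98) and CG18190 (0.98). Of the 7341 genes, 104 had an r above 0.9. The signal of colt was 1546, 1553 and 1618 with vehicle and 1632, 1684 and 1633 with PA, whereas that of Shrm was only 24.2 to 41.9.

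Prefoldin, the complex that hands unfolded actin and tubulin to CCT, had a slightly larger median log2 change than the subunits. Of its 6 subunit genes (Pfdn1, Pfdn2, mgr, Pfdn4, Pfdn5 and Pfdn6) 0 were called by limma and 4 had an unadjusted p under 0.05, against the same 17.0% of all probe sets. Among the 304 genes as bright as the CCT subunits 58.6% had such a p. The median log2 change of the prefoldin genes was 0.092, beside the 0.089 of those bright genes. Only Pfdn2 lies in the range of signal of those genes, and the other prefoldin genes are dimmer. The prefoldin median was 0.0031 with centring on those genes, 0.060 after quantile normalization and 0.077 with cyclic loess. The medians of the CCT subunits were then -0.046, -0.053 and -0.019. Pfdn2 came nearest to the threshold. Its signal was 6258, 6238 and 6593 with vehicle and 6756, 7218 and 7041 with PA, which gave a log2 change of 0.14 with an adjusted p of 0.0501 from limma. Pfdn1 had a log2 change of 0.12, with an adjusted p of 0.0687. Pfdn5 had the smallest change of the prefoldin genes, 0.031, below the CCT median of 0.043. With centring on the 75th percentile the prefoldin median was 0.17 and 4 of the 6 genes (Pfdn1, Pfdn2, mgr and Pfdn4) were called higher, where 0 of 8 CCT subunits were. Under that scaling 988 of the 18769 probe sets tested were called higher, against 429 as deposited. The median of the genes as bright as the CCT subunits was then 0.17 too. The difference between the prefoldin and the CCT genes was not tested. Of 3 genes listed as phosducin-like cofactors, which adjust the folding of clients by CCT, 0 were called and 0 had an unadjusted p under 0.05, and viaf had a log2 change of 0.072.

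Some genes of the clients and of the steps after CCT were called where the subunits were not, and each of these calls was lost under at least 1 other scaling. Of 11 measured actin and tubulin genes, 2 rose, and 9 did not pass, where 2.29% of all probe sets and 25.0% of the genes as bright as the CCT subunits were called higher. They were betaTub56D, with a log2 change of 0.15 (adjusted p = 0.0284), and betaTub60D, with 0.14 (adjusted p = 0.0232). Only betaTub60D lies in the range of signal of those bright genes. The probe set of betaTub56D (percentile 99.4) is brighter, and the other measured actin and tubulin genes are dimmer. Beta-tubulin genes are similar in sequence, so that their probe sets may share signal, which was not tested. Of the 9 that did not pass, betaTub97EF had a standard error of 0.077. The others had no signal above 80.6 on any array and standard errors of 0.23 to 1.05. Changes as small as those of the called genes could not have been called in them. Act5C, Act42A, Act57B, alphaTub84B and gammaTub23C have no probe set of 1 gene and were not analysed here. Of 5 measured tubulin folding cofactors, which receive tubulin from CCT, Tbca rose by a log2 change of 0.16 (adjusted p = 0.0274) and Tbcb by 0.16 (adjusted p = 0.0192), and Tbcc, Tbcd and Tbce did not pass, against the same shares of 2.29% and 25.0%. Tbca lies in the range of those bright genes, while Tbcb (percentile 95.9), Tbcc, Tbcd and Tbce are dimmer. None of these 4 calls held after centring on the median, quantile normalization or cyclic loess. Of 5 measured WD repeat proteins whose relatives are CCT clients in yeast or human cells, fzr and tws fell and 3 did not pass, where 2.82% of all probe sets were called lower. The gene tws, a regulatory subunit of protein phosphatase 2A, had signals of 2925, 2879 and 2828 with vehicle and 2509, 2566 and 2469 with PA. This is a log2 change of -0.19 (standard error 0.037, adjusted p = 0.00846), and its adjusted p was 0.00767 after quantile normalization, 0.0829 after centring on the median and 0.130 after centring on the 75th percentile. For fzr, an activator of the anaphase-promoting complex, the log2 change was -0.38 (adjusted p = 0.0379, or 0.191 after quantile normalization). When each array was left out in turn, tws was called in all 6 fits. The call of fzr was kept only without vehicle replicate 2, that of betaTub60D and of Tbca only without vehicle replicate 3, that of betaTub56D only without vehicle replicate 3 or PA replicate 3, and that of Tbcb only without vehicle replicate 1, vehicle replicate 3 or PA replicate 1. The adjusted p over these fits reached 0.152 for fzr, 0.0917 for betaTub60D, 0.129 for Tbca, 0.127 for betaTub56D and 0.0921 for Tbcb.

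Among the other chaperone systems, the mitochondrial chaperonin Hsp60A, a distant relative of CCT, was not called, at a log2 change of 0.080 (adjusted p = 0.272). CG11267, the Hsp10 gene whose product is the lid of that chaperonin, had 0.13 (adjusted p = 0.0447, or 0.868 after quantile normalization). It was the only 1 of 6 measured genes of that list to be called, where 2.29% of all probe sets and 25.0% of the genes as bright as the CCT subunits, of which it is 1, were called higher, and 4 of the 6 lay in the lower 50% of signal. Of 11 measured genes of the cytosolic Hsp70 and Hsp90 system, Hsc70-4, the constitutive Hsp70, was called higher at a log2 change of 0.12 (adjusted p = 0.0434) and turned to -0.027 after quantile normalization and -0.0084 with cyclic loess. Hsp110, a nucleotide exchange factor of Hsp70, was called lower at -0.17 (adjusted p = 0.0210, or 0.0187 after quantile normalization and 0.124 after centring on the median). The other 9 did not pass, where 5.10% of all probe sets were called in either direction. Among the genes as bright as the CCT subunits this share was 26.3%. Hsc70-4 (percentile 99.6) was brighter than those genes and Hsp110 (percentile 93.9) dimmer. Hsp83, Hsp70Aa, Hsp70Ab, Hsp70Ba and HIP, also of this list, have no probe set of 1 gene and were not analysed here. With 1 array left out, CG11267 and Hsc70-4 were called only without vehicle replicate 3 (adjusted p up to 0.169 and 0.170 in the other fits) and Hsp110 only without PA replicate 2 (up to 0.0917). Of the 10 hemocyte markers, 2 were called higher (Hml and NimC1) and 2 lower (srp and Ppn), where 2.29% and 2.82% of all probe sets were. Among the genes as bright as the CCT subunits these shares were 25.0% and 1.32%. The range of those genes holds srp, while Hml (percentile 99.1) lies just above it and NimC1 (percentile 96.6) just below. The calls of Hml and NimC1 were lost with centring on the median, quantile normalization, cyclic loess and centring on genes of the same brightness, that of srp with either the median or the 75th percentile as the centre, and that of Ppn with quantile normalization and cyclic loess. With 1 array left out, srp was called in none of the 6 fits (adjusted p from limma of 0.0593 to 0.186), Hml and NimC1 only without vehicle replicate 3 (up to 0.186 and 0.112 in the other fits) and Ppn only without vehicle replicate 2 (up to 0.0675). Of the 12 markers of other cell types 0 were called by limma. An unadjusted p under 0.05 from limma was reached by 2 (repo and vas, both in the lower 50% of signal). Over all probe sets 17.0% reached it. The part of cell identity in the values of the CCT subunits was not tested.

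**Figure D5:**
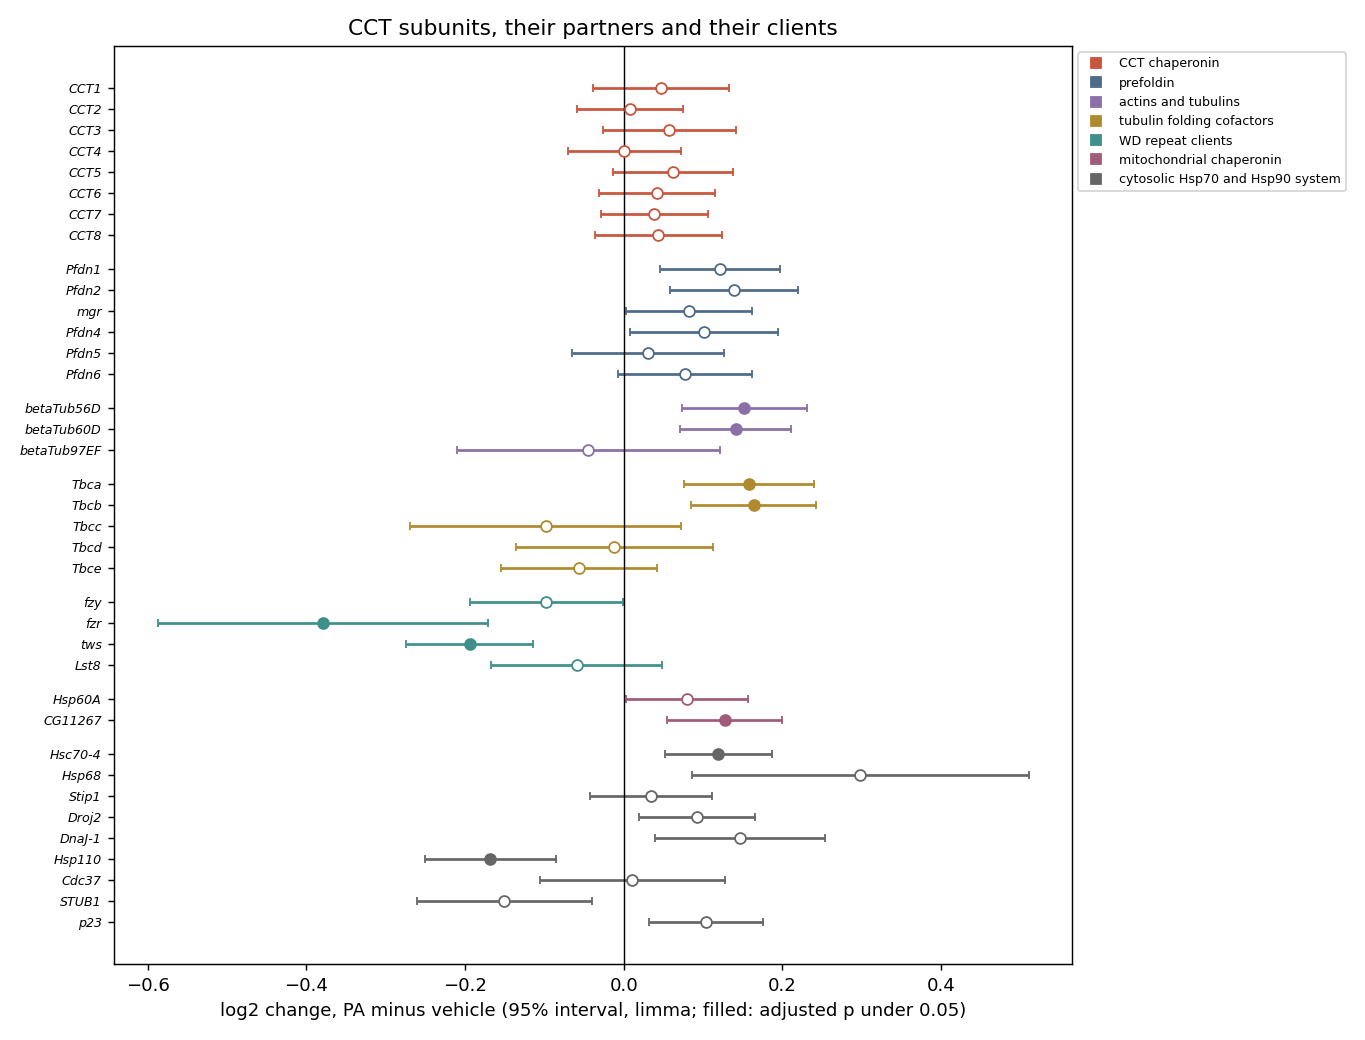
Log2 change (PA minus vehicle, x axis) with the 95% interval from limma for 37 genes of 7 groups, coloured by group, with filled points where the adjusted p is under 0.05; genes in the lower 50% of signal or with a standard error of 0.1 or more are left out. The 8 CCT subunits are all open points between 0.00079 and 0.062, while betaTub56D, betaTub60D, Tbca, Tbcb, CG11267 and Hsc70-4 are filled above 0 and fzr, tws and Hsp110 below it; quantile normalization takes Hsc70-4 and 6 CCT subunits below 0.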

How the data were processed

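The authors deposited MAS5 signals, a linear intensity, 1 for each probe set and array. The labels name MAS5 with no version. All were above 0, with a mean of 500.0 on every array after trimming 2% from each end, and no probe set had an identical value on 2 arrays. The table holds 18952 probe sets, and all but 183 controls (18769) were tested. Of these, 13647 have 1 gene in the array's annotation, 402 several and 4720 none. For 13544 of the 13647 the symbol was taken from RefSeq through the gene identifier, whether or not it differed from that of the array. No position is printed, since the annotation names no genome build.

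Log2 signals were fitted in R 4.3.3 by limma 3.58.1 (lmFit, then eBayes with a trend), PA minus vehicle, with Benjamini-Hochberg adjustment over all probe sets. It was tested on simulated data. Where a gene had more than 1 probe set, its brightest was used. The t-test of the study's methods (Student, 2-sided) was run on the same log2 signals. The number of arrays limits the precision.

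Named are all CCT subunits, the called members and up to 4 others of each list (prefoldin, phosducin-like cofactors, actins and tubulins, tubulin folding cofactors, WD repeat clients, mitochondrial chaperonin, cytosolic Hsp70 and Hsp90 system, hemocyte markers, markers of other cell types), and the 5 genes most like the mean of the subunits. Members and lists were chosen with earlier results of these data known. The alternatives were other scalings, offsets, a filter on signal, variance models, array weights, a replicate block, the methods' t-test and leaving out each array; centring on genes of the same brightness and ratios within the complex were chosen after seeing the data.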

Additional observations from a re-analysis of the deposited data

How the results depend on the processing

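No CCT subunit was called by limma under any alternative; the methods' t-test at an unadjusted p called 1 (CCT7). Leaving out 1 array at a time gave 0 subunits called and medians of 0.027 to 0.047 for the 8 subunits. The log2 change of CCT4 was -0.010 without vehicle replicate 3, -0.010 without PA replicate 1 and -0.00012 without PA replicate 2 (range -0.010 to 0.013).

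Each scaling gave, in turn, the probe sets called higher and lower, the members of the other lists called higher and lower, and the median of the subunits. As deposited these were 429 and 529, 8 and 5, and 0.043. With centring on the median they were 58 and 350, 0 and 2, and -0.038. With the 75th percentile they were 988 and 211, 17 and 1, and 0.12. Quantile normalization gave 238 and 266, 0 and 3, and -0.053. Cyclic loess gave 248 and 269, 0 and 3, and -0.019. Centring on genes of the same brightness gave 160 and 1836, 0 and 9, and -0.046. The cause of these differences was not tested.

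The log2 changes of CCT1 to CCT8 with centring on the median were -0.034, -0.073, -0.023, -0.080, -0.018, -0.039, -0.042 and -0.037. With centring on genes of the same brightness they were -0.042, -0.081, -0.031, -0.088, -0.026, -0.047, -0.050 and -0.045. Quantile normalization turned CCT1 (-0.050), CCT2 (-0.100), CCT4 (-0.061), CCT6 (-0.016), CCT7 (-0.070), CCT8 (-0.056) and Hsc70-4 (-0.027). Cyclic loess turned CCT1 (-0.016), CCT2 (-0.083), CCT4 (-0.044), CCT7 (-0.028), CCT8 (-0.022) and Hsc70-4 (-0.0084). Relative to the mean of the subunits, CCT2 (-0.029) and CCT4 (-0.037) were below 0.

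An offset of 16 gave 270 probe sets called higher, with 3 list members higher and 3 lower, and an offset of 64 gave 225 and 314, with 2 and 2. With no trend of the variance 7 probe sets were called higher and 0 lower, with 0 list members in either direction. The methods' t-test had 1234 higher and 1460 lower at an unadjusted p under 0.05, with 16 list members higher. With its fold limits it had 229 lower, with 2 list members higher and 0 lower, and after Benjamini-Hochberg adjustment 29 and 9, with 0 and 0. Leaving out 1 array gave 196 to 402 probe sets higher and 262 to 412 lower, with 0 to 11 list members higher and 1 to 3 lower.

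With the replicate number as a block 386 probe sets were called higher and 557 lower, and 0 CCT subunits; the calls of CG11267, Hsc70-4 and Hml were lost (adjusted p = 0.0727, 0.0783 and 0.0552). The labels do not say what the replicate numbers share, so the numbers were not taken to pair the arrays. Between same-numbered vehicle and PA arrays the residuals over all probe sets correlated at -0.0011, 0.019 and -0.0016. The many dim and noisy probe sets weigh heavily in these values (median standard error 0.596), so they cannot decide whether the arrays are paired. Averaging several probe sets of a gene gave no other value, as each subunit has 1 probe set.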
